A study of Mus musculus with 14 samples.

Results

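Genes of endoplasmic reticulum (ER) protein folding and of the unfolded protein response were examined in sorted mouse bone-marrow cells. They comprise 37 genes, matched by gene symbol among the 55335 gene rows of a single count table. The genes were listed in part because Xbp1 was known to be higher, and Pdia2 to be lost, in these same libraries after CD45-targeted radioimmunotherapy. The comparisons with that treatment are therefore a description. They carry no p-values, and numbers of genes past the threshold are printed there with nothing read from them. The tests below concern the other groups, though the genes were listed with earlier results of these data known. By role the genes are 3 stress sensors, 4 transcription factors, 11 chaperones and cofactors, 5 disulfide isomerases, 8 genes of ER-associated degradation, 5 genes of the eIF2alpha stress arm and 1 gene of export from the ER. All 37 passed the filter on low counts, as did 21509 genes in all.

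The ER is where secreted and membrane proteins fold, helped by chaperones such as Hspa5 (BiP) and by isomerases that form and exchange disulfide bonds. When unfolded proteins accumulate, the sensors Ern1 (IRE1), Eif2ak3 (PERK) and Atf6 start the unfolded protein response. Ern1 splices the Xbp1 transcript so that it encodes an active factor, Atf6 is cut to release a factor that switches on chaperones, and Eif2ak3 phosphorylates eIF2alpha, which slows translation while favouring that of Atf4. Other kinases, among them the haem-sensing Eif2ak1 (HRI), act on eIF2alpha too, so Atf4 and its targets also answer to stress that does not begin in the ER. Secretory cells such as plasma cells and osteoblasts depend on this machinery.

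All mice carried a Cdh5-driven Cre and a Rosa26 tdTomato reporter, so the sort depends on Cdh5-Cre having been active at some time in a cell or its ancestors. The sorted cells were lineage-negative, CD45-negative and tdTomato-positive, and the labels call them bone-marrow endothelium. The 4 groups, with n counting libraries, were untreated mice (n = 4), mice given 500 cGy of caesium total body irradiation (TBI; n = 5), mice given 20 µCi of radioimmunotherapy on a non-targeted IgG (IgG RIT; n = 3) and mice given 20 µCi of radioimmunotherapy on a CD45 antibody (CD45 RIT; n = 2). Treatment preceded harvest by 8 days. Strain, sex and age are not given in the sources used here, and nothing states that libraries came from separate animals, so the p-values measure the spread between these libraries, which may be technical.

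Library totals ran from 16412779 to 31077588 counts, and 3 counts, the floor used here for a gene with none, corresponded to 0.0786 to 0.215 counts per 1000000 (CPM). The endothelial markers gave a mixed picture of the cell label. Their summed level over 20 genes was 151 to 191 CPM in untreated cells, 81.9 to 133 after TBI, 76.0 to 92.3 after IgG RIT, and 181 and 423 in CD45 RIT replicates 1 and 2, where Kdr reached 115 CPM and Plvap 123 in replicate 2. Cdh5 itself had 0 to 6 counts in every library, and Cdh5, Tek, Tie1, Emcn, Sox17 and Stab2 were at 0 in both CD45 RIT libraries. Pecam1 was at 26.8 to 65.3 CPM in untreated cells and at 0.366 and 0.192 CPM after CD45 RIT. The summed level of 14 erythroid genes was 9770 to 15400 CPM in untreated cells, 30400 to 225000 after TBI, 169000 to 193000 after IgG RIT, and 281000 and 62100 in CD45 RIT replicates 1 and 2. The summed level of 18 stromal and osteolineage genes was 4150 to 9460 CPM in untreated cells, 1410 to 2560 after TBI, 1020 to 2400 after IgG RIT and 78900 to 128000 after CD45 RIT. Neutrophil markers (12 genes) summed to 8950 to 10500 CPM in untreated cells, 109 to 1030 after TBI, 754 to 961 after IgG RIT and 7.44 to 18.9 after CD45 RIT. Basophil and mast cell markers (11 genes) summed to 5060 to 7780, 134 to 948, 31.9 to 481 and 0.241 to 0.244 CPM in the same order of groups. The part of any of these cells in the changes below was not tested. In such bulk samples, fewer cells of a type and less RNA per cell cannot be told apart. The CD45 RIT replicates correlated at r = 0.673 across genes, against at least 0.906 within every other group, and TBI replicate 6 stood apart from the other TBI libraries, as the erythroid value of 225000 CPM shows. The labels also number the libraries, and every RIT library and TBI replicate 6 have a number of 10 or more, while the remaining 8 have lower ones.

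**Figure D1:**
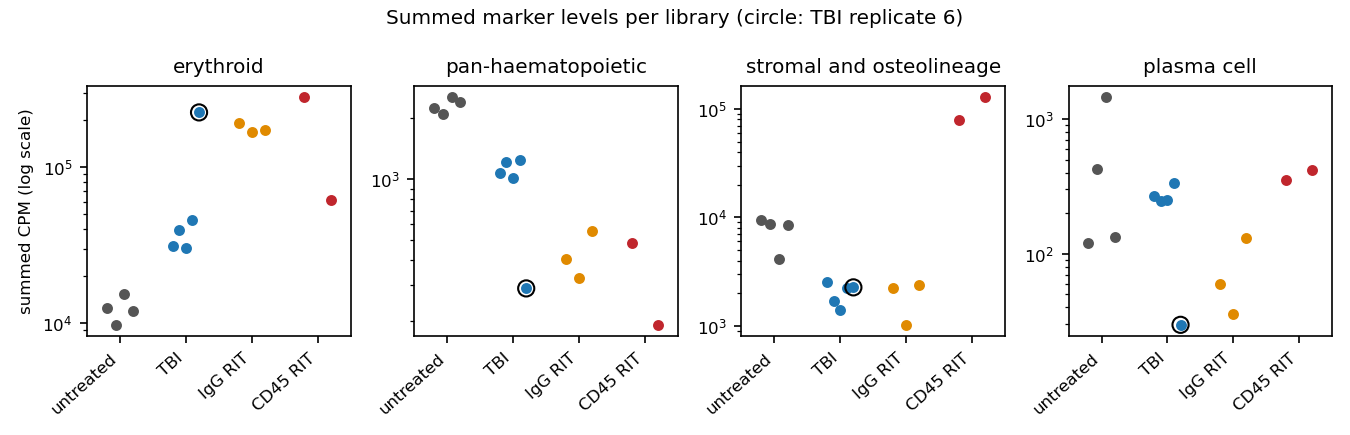
Summed CPM of 4 marker lists (log scale) in each library by group; each point is 1 library and the circle marks TBI replicate 6. TBI replicate 6 lies above the IgG RIT range in the erythroid panel (225000 against 169000 to 193000 CPM), and both CD45 RIT libraries lie above all others in the stromal and osteolineage panel.

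Promoter sequence was available from RefSeq (GRCm38.p6) for 33 of the 37 genes, as 34 windows covering the 250 bases before an annotated start site. The ER stress response element (ERSE), CCAAT and CCACG with 9 bases between them, was found on either strand in 26.5% of these windows and in 0.113% of all 32851 promoter windows. It occurred in 9 genes, mostly chaperones, and is shown because it is the classical element of ER chaperone promoters. Capitals mark the fixed bases, and each site is printed 5′ to 3′ on its own strand.
Calr: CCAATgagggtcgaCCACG, at chr8:84847075-84847093, plus strand, 144 bases before the start site.
Canx: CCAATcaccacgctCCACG, at chr11:50325800-50325818, minus strand, 127 bases before the start site.
Creld2: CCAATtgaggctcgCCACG, at chr15:88819520-88819538, minus strand, 108 bases before the start site.
Derl3: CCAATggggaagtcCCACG, at chr10:75893242-75893260, minus strand, 138 bases before the start site.
Dnajc3: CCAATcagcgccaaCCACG, at chr14:118937827-118937845, plus strand, 87 bases before the start site.
Hsp90b1: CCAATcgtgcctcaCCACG, at chr10:86705533-86705551, plus strand, 89 bases before the start site.
Hsp90b1: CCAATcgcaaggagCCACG, at chr10:86705638-86705656, minus strand, 194 bases before the start site.
Hspa5: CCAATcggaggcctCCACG, at chr2:34772025-34772043, plus strand, 47 bases before the start site.
Pdia6: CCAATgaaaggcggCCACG, at chr12:17266491-17266509, plus strand, 80 bases before the start site.
Syvn1: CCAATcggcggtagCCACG, at chr19:6046532-6046550, plus strand, 26 bases before the start site.

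The shorter ERSE-II, ATTGG and CCACG with 1 base between them, was found in Herpud1 alone among these genes (2.94% of their windows, 0.0304% of all windows). The amino-acid response element bound by ATF4 dimers (CARE), TGATGNAAN, was found in 4 genes (11.8% of their windows, 3.44% of all). The cyclic AMP response element TGACGTCA was found in Ppp1r15a (2.94% against 1.55%). The unfolded protein response element TGACGTGG was in none of the 34 windows and in 0.563% of all. The CCAAT box, which every ERSE contains and which ERSE-II contains on its other strand, was in 73.5% of the windows against 33.8% of all. Capitals again mark the fixed bases.
Herpud1: ATTGGgCCACG, at chr8:94386377-94386387, plus strand, 42 bases before the start site.
Asns: TGATGaAAc, at chr6:7693224-7693232, minus strand, 15 bases before the start site.
Atf3: TGATGcAAg, at chr1:191183436-191183444, plus strand, 103 bases before the start site.
Chac1: TGATGcAAc, at chr2:119351048-119351056, minus strand, 186 bases before the start site.
Herpud1: TGATGcAAc, at chr8:94386316-94386324, minus strand, 105 bases before the start site.
Ppp1r15a: TGACGTCA, at chr7:45526273-45526280, minus strand, 5 bases before the start site.

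Whole windows are shown for Pdia2, the gene with 0 counts after CD45 RIT, and for Ppp1r15a, which had the highest mean level per kilobase of the 37 after both TBI and IgG RIT. The TBI mean of Ppp1r15a includes replicate 6, at 1840 CPM against 327 to 572 in the other TBI libraries. Pdia2 is read from the minus strand at chr17:26199088-26199337, and held none of the motifs above other than the CCAAT box. Ppp1r15a is read from the minus strand at chr7:45526269-45526518, and capitals mark its TGACGTCA.
Pdia2: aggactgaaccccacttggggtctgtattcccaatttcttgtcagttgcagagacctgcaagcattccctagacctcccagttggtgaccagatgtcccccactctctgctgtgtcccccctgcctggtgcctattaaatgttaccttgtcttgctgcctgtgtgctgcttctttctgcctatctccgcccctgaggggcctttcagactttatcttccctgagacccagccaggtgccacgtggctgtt
Ppp1r15a: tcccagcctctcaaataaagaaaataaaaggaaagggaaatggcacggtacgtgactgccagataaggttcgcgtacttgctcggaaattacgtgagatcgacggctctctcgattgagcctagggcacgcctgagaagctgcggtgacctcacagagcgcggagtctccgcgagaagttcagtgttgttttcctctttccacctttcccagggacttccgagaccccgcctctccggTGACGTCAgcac

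A motif match is a description of the letters and not of binding. In the tests described next, 2 of the 9 genes with an ERSE were lower after TBI and 3 after IgG RIT, where 3.38% and 10.7% of all genes were. Among the 24 genes with a window but no ERSE, 4 were lower after TBI and 9 after IgG RIT. Genes with and without a motif were not tested against each other.

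After TBI, 9 of the 37 genes passed the test against untreated cells, 3 higher and 6 lower, where 4.31% of all genes tested were called, 0.921% higher and 3.38% lower (edgeR quasi-likelihood test, Benjamini-Hochberg adjusted p under 0.05 over 21509 genes). Trib3, Atf4 and Pdia2 rose, and Xbp1, Calr, Sdf2l1, Pdia6, Edem2 and Tmed3 fell. After IgG RIT, 20 passed, 8 higher and 12 lower, where 16.4% of all genes were called, 5.75% higher and 10.7% lower. Atf4, Ddit3, Ppp1r15a, Trib3, Eif2ak1, Pdia2, Dnajb11 and Derl1 rose, and Xbp1, Hsp90b1, Calr, Sdf2l1, Pdia3, Pdia4, Pdia6, P4hb, Sel1l, Edem1, Edem2 and Tmed3 fell. In 9 genes every TBI library lay above every untreated one and in 12 below (6.34% and 12.8% of all genes), and for IgG RIT these numbers were 11 and 13 (15.6% and 27.4%). TBI and IgG RIT share the untreated libraries. The median log2 fold change of the 37 genes was −0.15 after TBI and −0.21 after IgG RIT, against −0.16 and −0.42 over all genes. That all-gene median moved with the scaling, to −0.04 and −0.21 with relative log expression factors and to −0.28 and −0.94 with none.

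The IgG RIT libraries all have numbers of 10 or more and the untreated libraries all have lower ones, so no comparison within either range exists for IgG RIT. With that split as a term in the fit, estimated from TBI replicate 6 alone, 0 of the 37 genes were called after IgG RIT (edgeR; 19 genes of all 21509, and 1263 at an unadjusted p under 0.05). Without TBI replicate 6, which leaves libraries numbered below 10 on both sides, 9 were still called after TBI. For IgG RIT, library number and treatment cannot otherwise be told apart. Leaving out single libraries ended the call of Atf4, Calr, Pdia2, Pdia6 or Trib3 after TBI in 7 cases (each untreated library, and TBI replicates 3, 4 and 5), while Xbp1, Sdf2l1, Edem2 and Tmed3 were called in every case. The TBI count was 4 without untreated replicate 2, untreated replicate 4 or TBI replicate 5. It was 6 without untreated replicate 1, untreated replicate 3 or TBI replicate 3. Leaving out either CD45 RIT library, whose spread enters the shared fit, raised both this count and the share of all genes called. For IgG RIT, such omissions ended calls of Calr, Derl1, Dnajb11, Edem1, Hsp90b1 and Sel1l only. With the omissions that gave 4 after TBI, 1.91% to 2.51% of all genes were called, against 4.31% with all libraries. With those that gave 6, the share was 2.41% to 2.74%. The strand setting of the counting is not given. In the annotation, 14 of the 37 genes overlap a gene on the other strand, with introns included in the spans. Xbp1 was not checked, because the version of its identifier is not in that annotation. Among the 14 are Ppp1r15a (Tulp2), Eif2ak1 (Aimp2 and Ankrd61), Ddit3 (Mars) and Pdia6 (Atp6v1c2). Whether reads of such a partner entered their counts was not tested.

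**Figure D2:**
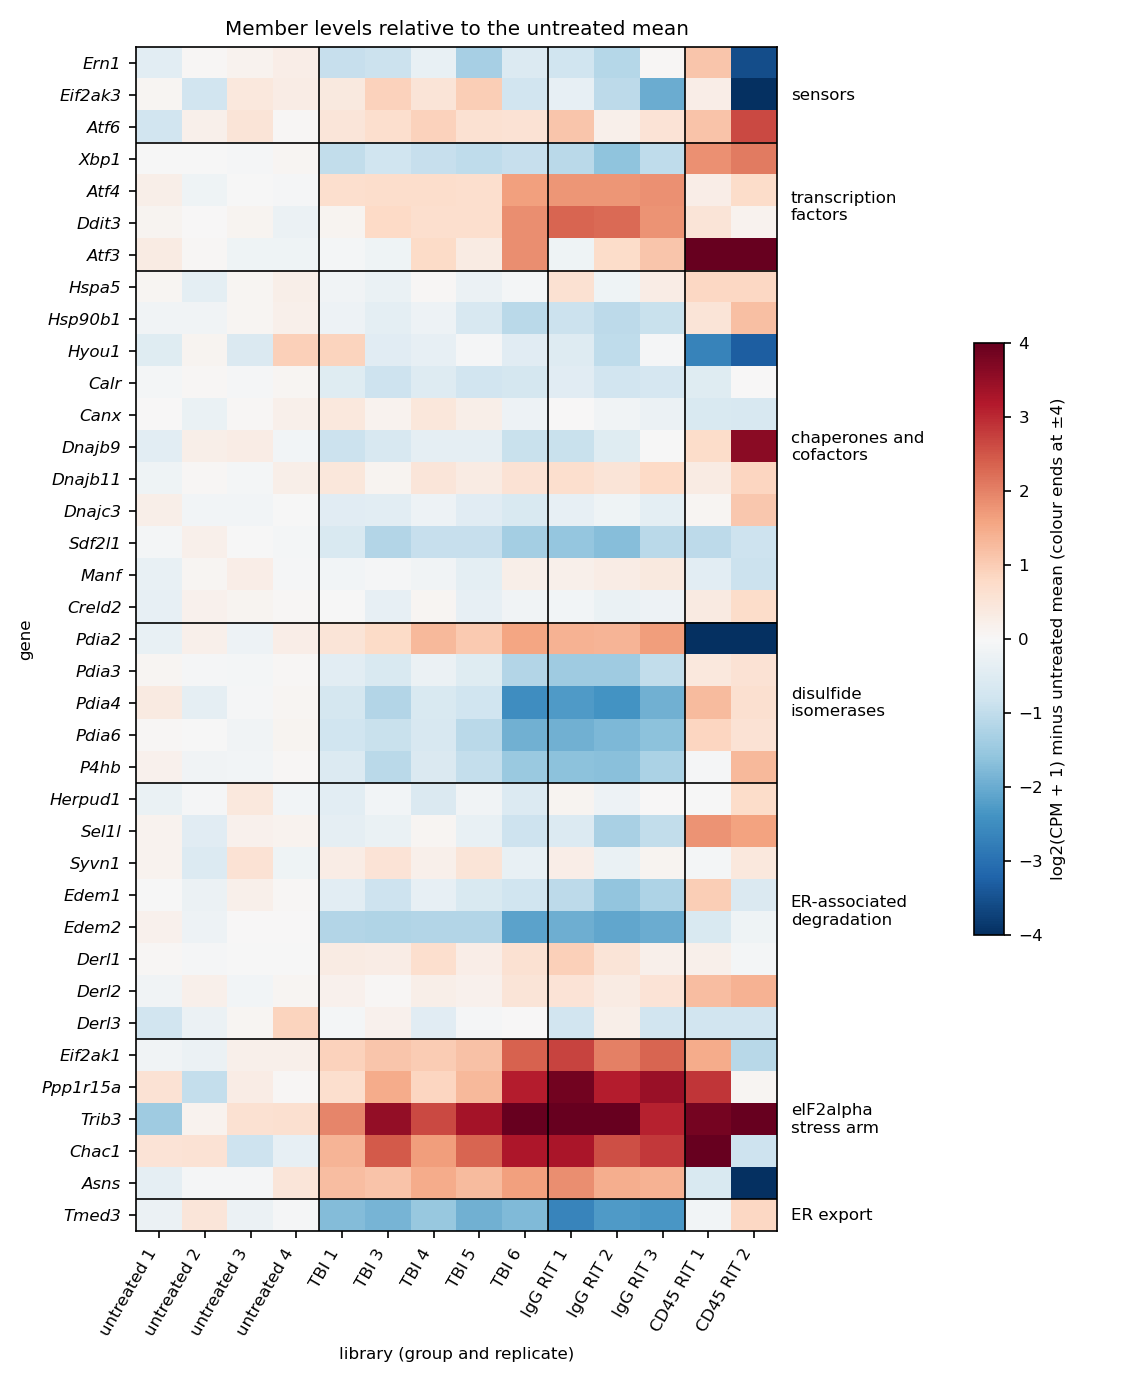
Level of each of the 37 genes (rows, grouped by role) in each of the 14 libraries (columns), as log2(CPM + 1) minus the untreated mean; colour ends at 4 in either direction. The disulfide isomerases other than Pdia2 are blue after TBI and IgG RIT and red or pale after CD45 RIT, while the eIF2alpha arm is red after TBI and IgG RIT and divided between the CD45 RIT libraries.

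The 3 sensors did not pass the test after TBI or IgG RIT. Ern1 (chr11:106394650-106487852), the kinase and ribonuclease that splices Xbp1, was at 7.55, 10.9, 11.8 and 12.8 CPM in untreated cells, at 5.10, 5.43, 8.45, 3.59 and 6.89 after TBI (replicates 1, 3, 4, 5 and 6) and at 5.62, 4.23 and 10.9 after IgG RIT. The groups overlapped, and on the log2 scale Ern1 differed from untreated by −0.87 ± 0.96 (SE; adjusted p = 0.737) for TBI and −0.63 ± 1.12 (adjusted p = 0.736) for IgG RIT. Eif2ak3, the PERK kinase, was at 12.6 to 30.0 CPM in untreated cells, at 29.4, 43.1, 32.5 and 45.2 in TBI replicates 1, 3, 4 and 5 but 12.8 in replicate 6, and at 17.6, 10.3 and 4.94 after IgG RIT. TBI replicate 6 thus lay within the ranges of both IgG RIT and untreated cells. For Eif2ak3 the log2 fold change was 0.47 ± 0.77 for TBI (adjusted p = 0.846) and −1.10 ± 0.90 for IgG RIT (adjusted p = 0.424). Atf6, the sensor released by cleavage, was at 10.1, 21.0, 26.3 and 18.6 CPM in untreated cells, at 25.5, 29.0, 35.0, 28.3 and 27.2 after TBI and at 40.2, 20.7 and 26.6 after IgG RIT. Both groups overlapped the untreated range, with fold changes of 0.61 ± 0.35 (adjusted p = 0.413) and 0.62 ± 0.40 (adjusted p = 0.301).

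After CD45 RIT the sensors differed between the replicates. Ern1 was at 24.1 CPM in replicate 1 and had 0 counts in replicate 2. Eif2ak3 was at 26.8 and 0.433 CPM. Their log2 differences from untreated, 0.17 ± 1.24 for Ern1 and −0.79 ± 1.03 for Eif2ak3, became 1.22 and 0.24 without replicate 2 and were far below 0 without replicate 1. Atf6 was at 40.6 and 117 CPM, above every other library, although IgG RIT replicate 1 lay just beneath the lower of the pair at 40.2. The mean of Atf6 was 78.8 ± 54.0 CPM (SD, n = 2) against 19.0 ± 6.75 (n = 4) in untreated cells.

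Xbp1 (ENSMUSG00000020484, chr11:5520659-5525893), the factor activated by Ern1, was at 155, 156, 153 and 166 CPM in untreated cells. It was at 79.3, 91.0, 82.7, 77.3 and 82.4 CPM after TBI and at 73.4, 51.3 and 77.5 after IgG RIT. Every irradiated library of those groups lay below every untreated one, TBI replicate 6 among the rest. Xbp1 fell by 0.93 ± 0.14 on the log2 scale after TBI (adjusted p = 0.00357) and by 1.22 ± 0.17 after IgG RIT (adjusted p = 0.00184; 0.164 with the library-number term, at the same fold change). After CD45 RIT it was at 560 and 667 CPM, above all other libraries, a log2 difference from untreated of 1.96 ± 0.17 and from IgG RIT of 3.19 ± 0.19. Gene counts do not separate spliced from unspliced Xbp1.

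Atf4 (chr15:80255184-80257541), the factor whose translation eIF2alpha phosphorylation favours, was at 132, 100, 112 and 109 CPM in untreated cells. It was at 179, 186, 184 and 182 CPM in TBI replicates 1, 3, 4 and 5, at 354 in TBI replicate 6, and at 383, 385 and 406 after IgG RIT. No irradiated library of these groups overlapped the untreated ones. Atf4 rose by 0.94 ± 0.22 after TBI (adjusted p = 0.0317; 0.69 and 0.0146 without TBI replicate 6) and by 1.79 ± 0.24 after IgG RIT (adjusted p = 0.00184). The CD45 RIT libraries were at 135 and 187 CPM.

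Ddit3 (CHOP), a factor downstream of Atf4, was at 43.5, 40.0, 43.2 and 33.7 CPM in untreated cells, at 43.5, 70.1, 64.2, 63.8 and 148 after TBI and at 204, 196 and 140 after IgG RIT. It rose after IgG RIT by 2.17 ± 0.35 (adjusted p = 0.00301), and after TBI the value was 0.96 ± 0.31 (adjusted p = 0.106). After CD45 RIT Ddit3 was at 56.9 and 44.1 CPM, below every IgG RIT library. Atf3, a stress-induced factor, was at 0 to 0.419 CPM in untreated cells, 0 to 3.09 after TBI and 0 to 1.47 after IgG RIT, with no call. It was at 50.3 and 55.0 CPM after CD45 RIT, the largest log2 difference from untreated among the 4 factors (8.37 ± 1.98).

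Among the 11 chaperones and cofactors, 2 fell and 0 rose after TBI, where 3.38% of all genes fell and 0.921% rose. After IgG RIT, 3 fell and 1 rose, where 10.7% and 5.75% of all genes did. Hspa5 (chr2:34771970-34777547), the main ER chaperone, was not among them. It was at 838, 607, 828 and 933 CPM in untreated cells, at 661 to 811 after TBI and at 1220, 702 and 979 after IgG RIT, and the 3 groups overlapped. Its log2 fold change was −0.15 ± 0.17 (adjusted p = 0.750) after TBI and 0.27 ± 0.19 (adjusted p = 0.357) after IgG RIT, the latter turning to −0.26 with no scaling factors.

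Calr, the calcium-binding lectin chaperone calreticulin, was at 735, 818, 766 and 820 CPM in untreated cells, at 440 to 561 after TBI and at 576, 463 and 497 after IgG RIT. It fell by 0.66 ± 0.14 after TBI (adjusted p = 0.0194) and by 0.62 ± 0.16 after IgG RIT (adjusted p = 0.0222), with no overlap. Canx, its membrane-bound counterpart, was not called in either (0.22 ± 0.15 and −0.13 ± 0.17). Sdf2l1, a cofactor of Hspa5, was at 154 to 188 CPM in untreated cells, at 107, 72.7, 86.1, 86.6 and 62.5 after TBI and at 55.8, 49.4 and 76.8 after IgG RIT. Sdf2l1 fell by 0.98 ± 0.19 (adjusted p = 0.0120) and by 1.44 ± 0.22 (adjusted p = 0.00269).

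Hsp90b1 (GRP94), the ER member of the Hsp90 family, was at 422, 425, 488 and 531 CPM in untreated cells and at 258, 225 and 250 after IgG RIT, a fall of 0.94 ± 0.23 (adjusted p = 0.0182). After TBI it was at 403, 354, 399, 298 and, in replicate 6, 219 CPM, which was not called (−0.48 ± 0.20, adjusted p = 0.213). Dnajb11, a J-domain partner of Hspa5, was at 122 to 163 CPM in untreated cells and at 221, 200 and 242 after IgG RIT, a rise of 0.66 ± 0.18 (adjusted p = 0.0247). The other 6 (Hyou1, Canx, Dnajb9, Dnajc3, Manf and Creld2) had log2 fold changes between −0.72 and 0.29 in the 2 comparisons and none was called.

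After CD45 RIT the chaperones diverged. Hspa5 was at 1400 CPM in both libraries, above all others, and Hsp90b1 was at 658 and 1080, also above all others. Dnajb9, a J-domain protein induced in ER stress, was at 14.2 and 112 CPM against 5.89 to 10.3 in untreated cells, the largest log2 difference upward in this role (2.91 ± 0.60) and 0.81 without replicate 2. Hyou1, a large Hsp70-like exchange factor of Hspa5, was at 1.10 and 0.337 CPM against 7.95 to 24.7 in untreated cells, the largest difference downward (−4.25 ± 0.82). Sdf2l1 was at 79.4 and 92.6 CPM, below every untreated library.

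The 5 disulfide isomerases were all called after IgG RIT, 4 lower and 1 higher, where 16.4% of all genes were called, and 2 were called after TBI, 1 in each direction, where 4.31% were. Pdia6 (chr12:17266545-17284770), an isomerase that also acts on Ern1 signalling, was at 523, 502, 455 and 542 CPM in untreated cells, at 291, 270, 322, 237 and 132 after TBI and at 131, 143 and 160 after IgG RIT. None of the irradiated libraries overlapped the untreated ones, and TBI replicate 6 lay within the IgG RIT range. Pdia6 fell by 1.01 ± 0.21 after TBI (adjusted p = 0.0197) and by 1.80 ± 0.26 after IgG RIT (adjusted p = 0.00204).

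Pdia3, which works on glycoproteins with Calr and Canx, was at 767, 701, 700 and 759 CPM in untreated cells and at 273, 273 and 368 after IgG RIT, a fall of 1.26 ± 0.21 (adjusted p = 0.00326). Pdia4 was at 207, 126, 156 and 172 CPM and at 32.8, 30.1 and 42.2 after IgG RIT, a fall of 2.24 ± 0.40 (adjusted p = 0.00468). P4hb, the classical protein disulfide isomerase, was at 658, 523, 541 and 605 CPM and at 185, 182 and 239 after IgG RIT, a fall of 1.53 ± 0.31 (adjusted p = 0.00751). After TBI these 3 lay below every untreated library too, at 324 to 623, 28.3 to 106 and 208 to 399 CPM, but were not called (adjusted p of 0.101, 0.0920 and 0.0739). For all 4 of these isomerases the lowest TBI library was replicate 6.

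Pdia2 (ENSMUSG00000024184, chr17:26195999-26199087), a family member best known from the pancreas, moved the other way. It was at 33.7, 48.0, 35.6 and 49.9 CPM in untreated cells, at 59.0, 71.4, 103, 86.9 and 125 after TBI and at 109, 107 and 134 after IgG RIT, with no overlap. Pdia2 rose by 1.09 ± 0.24 after TBI (adjusted p = 0.0299) and by 1.48 ± 0.27 after IgG RIT (adjusted p = 0.00551). Both CD45 RIT libraries had 0 counts of it. Set against the floor of 3 counts in the CD45 RIT library where that floor is higher in CPM, the level of untreated cells was at least 228-fold higher for Pdia2 and that of IgG RIT at least 638-fold higher. The other 4 isomerases were at or above untreated levels after CD45 RIT: Pdia4 was at 394 and 252 CPM, Pdia6 at 920 and 757, Pdia3 at 979 and 1100, and P4hb at 561 and 1430.

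**Figure D3:**
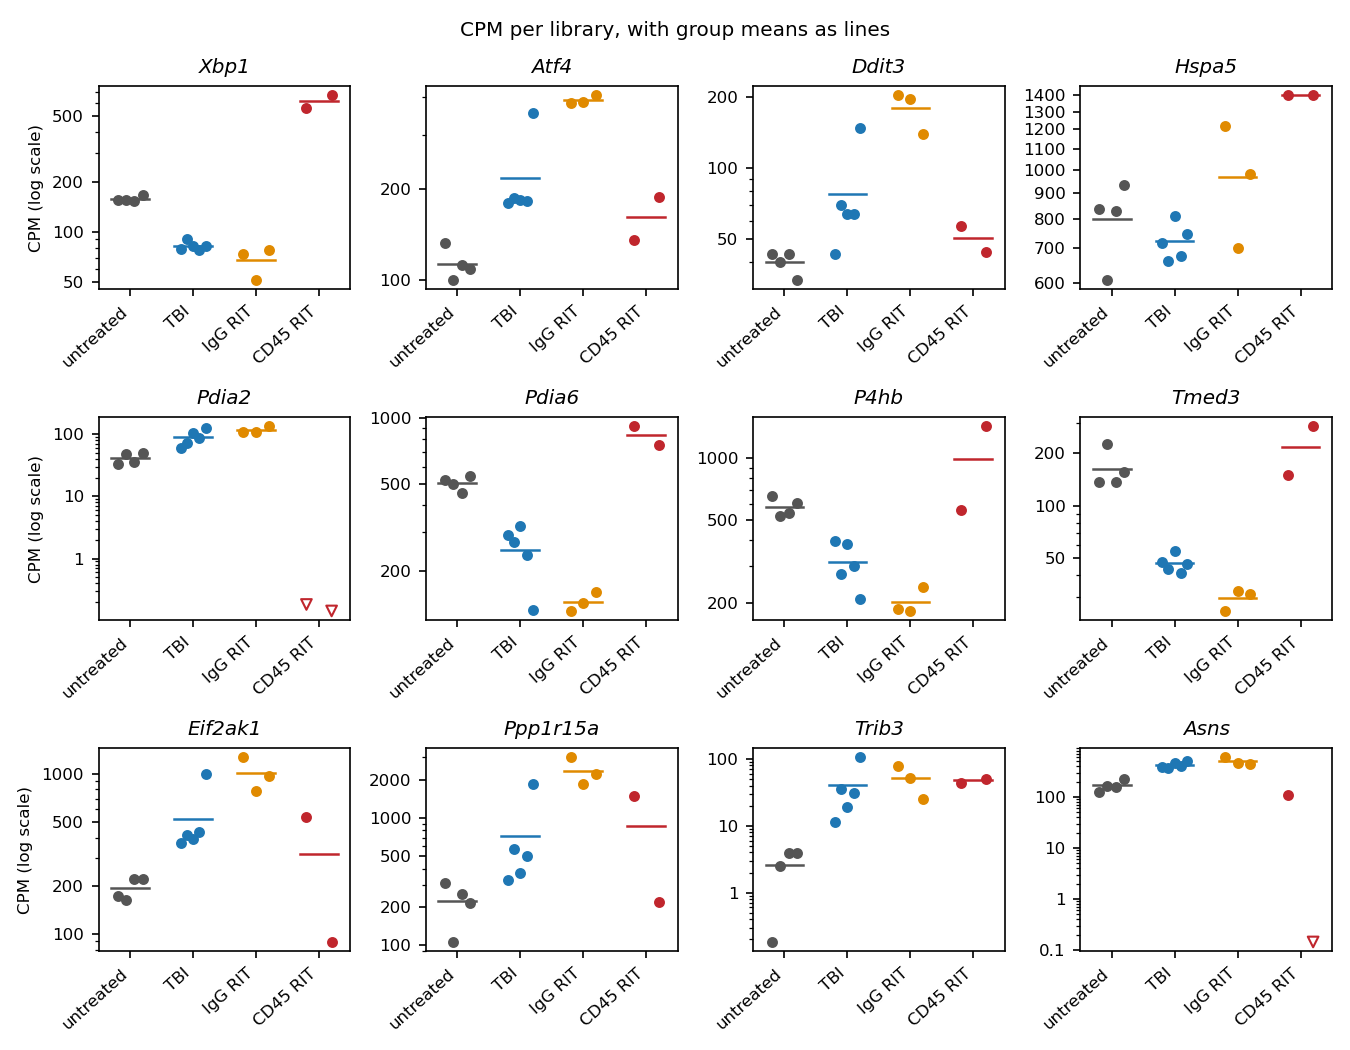
CPM (log scale, a separate axis for each gene) of 12 of the genes in each library; points are libraries and lines are group means, and open triangles mark libraries with 0 counts, drawn at the floor of 3 counts, where no mean line is drawn. Xbp1, Pdia6, P4hb and Tmed3 are below untreated cells in all TBI and IgG RIT libraries, and Pdia2 has 0 counts in both CD45 RIT libraries.

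Of 8 genes of ER-associated degradation, by which misfolded proteins are sent back to the cytosol, 1 was called after TBI, Edem2, and 4 after IgG RIT (3 lower, 1 higher), where 4.31% and 16.4% of all genes were. Edem2, which trims mannose from glycoproteins bound for degradation, was at 119, 90.4, 106 and 106 CPM in untreated cells, at 45.7, 45.0, 46.4, 46.3 and 23.0 after TBI and at 26.6, 24.0 and 25.7 after IgG RIT. It fell by 1.35 ± 0.22 after TBI (adjusted p = 0.00499) and by 2.05 ± 0.27 after IgG RIT (adjusted p = 0.00184), with no overlap. Its relative Edem1 was at 58.8 to 80.1 CPM in untreated cells and at 33.0, 22.7 and 29.0 after IgG RIT, a fall of 1.31 ± 0.33 (adjusted p = 0.0194). Sel1l, the adaptor of the Syvn1 ubiquitin ligase, was at 67.5, 44.7, 69.6 and 68.2 CPM and at 42.2, 24.7 and 30.8 after IgG RIT, a fall of 0.94 ± 0.26 (adjusted p = 0.0304).

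Derl1, a channel component, rose after IgG RIT. It was at 145 to 152 CPM in untreated cells and at 286, 211 and 169 after IgG RIT (0.58 ± 0.19, adjusted p = 0.0498), a call lost on leaving out any of 10 single libraries. Herpud1, Syvn1 and Derl2 were not called, with log2 fold changes between −0.37 and 0.49 in the 2 comparisons. Derl3 was at 0 to 2.18 CPM in every library. After CD45 RIT, Sel1l was at 214 and 191 CPM, above all other libraries, the largest difference upward in this role (1.70 ± 0.28), and Derl3 had 0 counts in both libraries.

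All 5 genes of the eIF2alpha arm were higher in every TBI and IgG RIT library than in every untreated one, beside the 6.34% and 15.6% of all genes given above. Of these 5, 1 was called after TBI and 3 after IgG RIT, where 4.31% and 16.4% of all genes were. Trib3, a pseudokinase induced through Atf4 and Ddit3, was at 0.183, 2.51, 3.87 and 3.95 CPM in untreated cells, at 11.2, 35.2, 18.8, 30.8 and 106 after TBI and at 79.7, 52.7 and 25.5 after IgG RIT. Trib3 rose by 3.94 ± 0.88 after TBI (adjusted p = 0.0262) and by 4.32 ± 0.93 after IgG RIT (adjusted p = 0.00977).

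Ppp1r15a (GADD34; chr7:45522916-45526268), which directs the phosphatase that reverses eIF2alpha phosphorylation, was at 309, 106, 254 and 214 CPM in untreated cells. It was at 327, 572, 371 and 506 CPM in TBI replicates 1, 3, 4 and 5, at 1840 in TBI replicate 6, and at 3010, 1840 and 2240 after IgG RIT. Ppp1r15a rose after IgG RIT by 3.42 ± 0.71 (adjusted p = 0.00824; 1.37 with the library-number term), and after TBI the value was 1.71 ± 0.62 (adjusted p = 0.154; 1.01 without TBI replicate 6). Eif2ak1, the haem-sensing kinase, was at 174, 163, 220 and 222 CPM in untreated cells, at 369 to 434 in TBI replicates 1, 3, 4 and 5, at 994 in TBI replicate 6, and at 1270, 786 and 965 after IgG RIT. It rose after IgG RIT by 2.37 ± 0.50 (adjusted p = 0.00924), and the TBI value was 1.42 ± 0.45 (adjusted p = 0.103). The libraries high in both genes are those with summed erythroid levels of 169000 CPM or more outside the CD45 RIT group, and the part of erythroid RNA in the result was not tested.

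Asns (asparagine synthetase) was at 127, 160, 159 and 229 CPM in untreated cells, at 362 to 515 after TBI and at 432 to 598 after IgG RIT, without a call (1.34 ± 0.97 and 1.56 ± 1.07; adjusted p = 0.544 and 0.333). Chac1, a glutathione-degrading Atf4 target, was at 0 to 1.65 CPM in untreated cells, at 3.47 to 15.7 after TBI and at 9.51 to 15.8 after IgG RIT, also without a call (adjusted p = 0.258 and 0.108). After CD45 RIT this arm split by library. Replicate 1 was at 1500 CPM of Ppp1r15a, 539 of Eif2ak1, 41.1 of Chac1 and 108 of Asns. Replicate 2 was at 219 CPM of Ppp1r15a and 89.3 of Eif2ak1, and had 0 counts of Chac1 and of Asns. The summed erythroid level of replicate 1 was 281000 CPM and that of replicate 2 was 62100. Trib3 alone of the 5 was alike in both, at 44.4 and 50.8 CPM.

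Tmed3 (chr9:89699206-89705068), a cargo receptor of vesicles between the ER and the Golgi, showed the lowest adjusted p of the 37 in both comparisons. It was at 137, 225, 137 and 156 CPM in untreated cells, at 47.7, 43.6, 55.1, 41.1 and 46.7 after TBI and at 25.0, 32.4 and 31.3 after IgG RIT. No library overlapped, and TBI replicate 6 lay within the range of the other TBI libraries. Tmed3 fell by 1.80 ± 0.22 after TBI (adjusted p = 0.00136) and by 2.47 ± 0.27 after IgG RIT (adjusted p = 0.000977; 0.0669 with the library-number term, at −2.46). The CD45 RIT libraries were at 150 and 286 CPM.

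**Figure D4:**
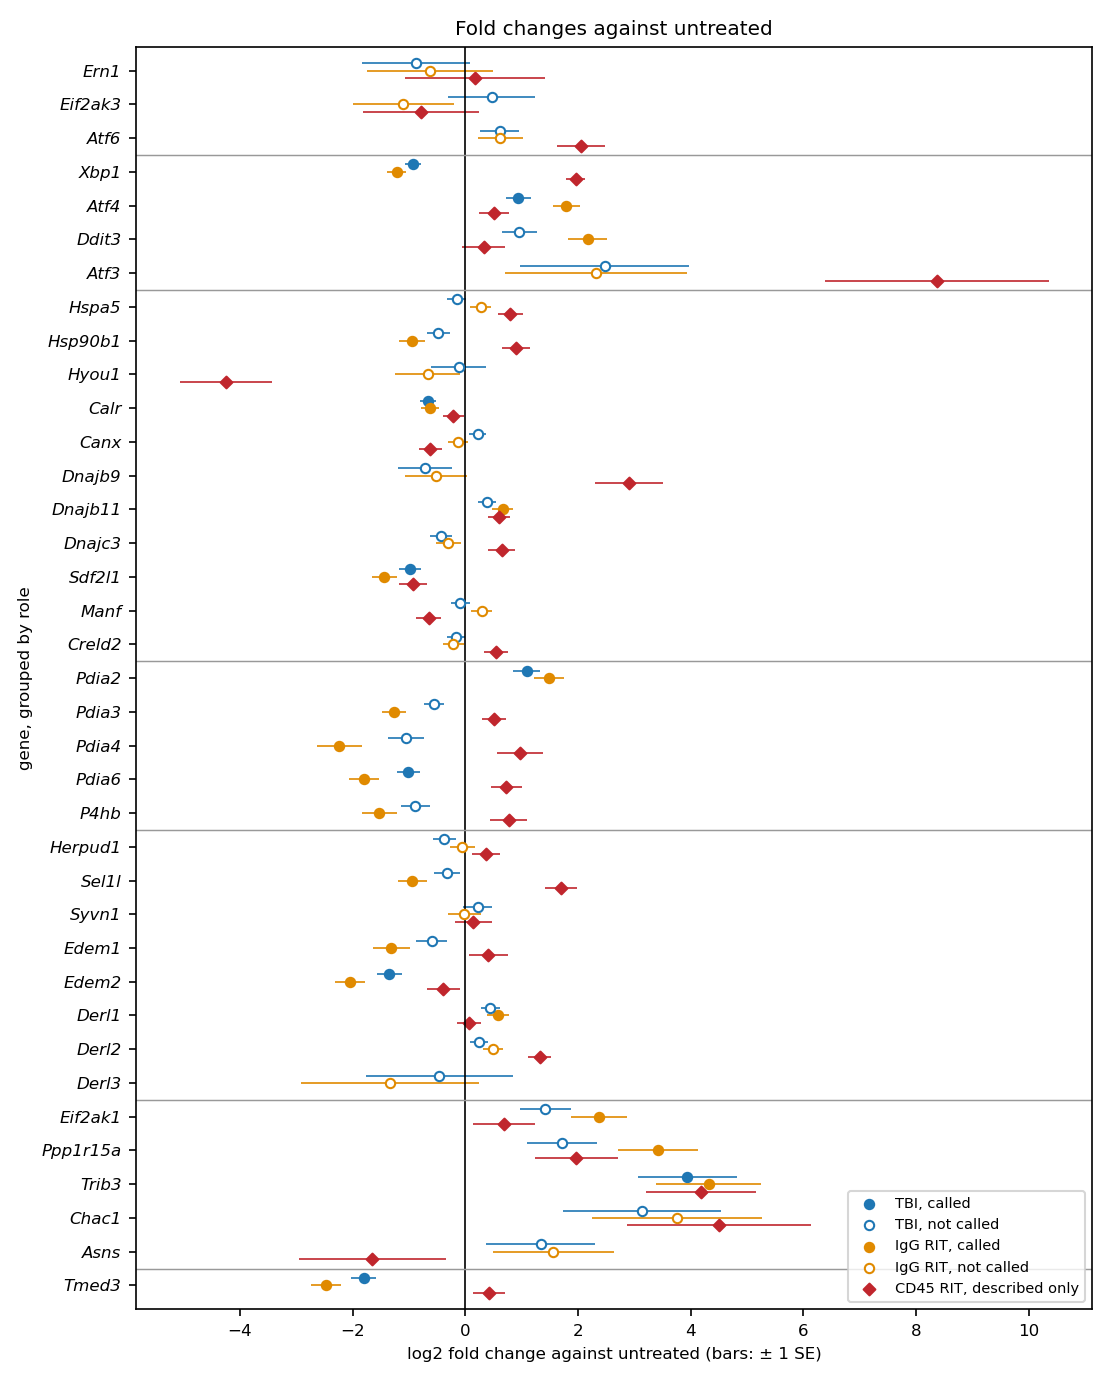
Log2 fold change against untreated (bars are ± 1 SE) of the 37 genes by role, for TBI, IgG RIT and CD45 RIT; filled circles passed an adjusted p under 0.05, and the CD45 RIT diamonds are described without a test. Pdia2 and Derl3 have no CD45 RIT point because both libraries had 0 counts; the eIF2alpha genes lie to the right of 0 after TBI and IgG RIT, and Tmed3 and the isomerases other than Pdia2 lie to the left.

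IgG RIT and TBI, set against each other, gave 0 calls among the 37 genes by edgeR, where 0.242% of all genes were called. At an unadjusted p under 0.05 there were 13 of the 37, beside 3984 of all 21509 genes. DESeq2 called 5 of the 37, beside 9.69% of all genes. The largest differences by size were in Ppp1r15a (1.71 ± 0.63, adjusted p = 0.182) and Eif2ak3 (−1.58 ± 0.89, adjusted p = 0.363). TBI replicate 6 lay within the IgG RIT range for 25 of the 37 genes, against 8 to 12 genes for each other TBI library. The share over all genes was not computed, so whether the 37 genes differ from others in this is not known. Without TBI replicate 6, 2020 of 21509 genes differed between IgG RIT and TBI, against 52 with it, and 7 of the 37 genes did. Leaving out either CD45 RIT library alone raised both the number of the 37 genes called and the share of all genes called. Those fits keep a single CD45 RIT library, so their counts are not given here.

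As a description only, 15 of the 37 genes lay past the threshold in CD45 RIT against untreated, 10 higher and 5 lower, where 33.1% of all genes did, 14.5% higher and 18.6% lower. The counts against IgG RIT were 21 (16 higher, 5 lower; 37.7% of all genes, 20.2% higher and 17.5% lower) and against TBI 21 (18 higher, 3 lower; 38.6% of all genes, 19.6% higher and 19.0% lower). These comparisons share the CD45 RIT libraries and include the choice of the genes, so nothing is read from the counts. The split depended on the scaling: against untreated it was 18 higher and 2 lower with relative log expression factors and 7 higher and 8 lower with none, against IgG RIT 13 and 7 with none, and against TBI 10 and 7 with none. The split of all 21509 genes moved too. Against untreated it was 3853 higher and 3451 lower with relative log expression factors and 1796 and 6107 with none. With none it was 3843 and 4216 against IgG RIT and 2994 and 5922 against TBI. The median log2 difference of the 37 genes from untreated was 0.51, and that of all genes −0.37.

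Within CD45 RIT, 7 of the 35 genes above the floor differed by more than 4-fold between the 2 libraries (Ern1, Eif2ak3, Dnajb9, Eif2ak1, Ppp1r15a, Chac1 and Asns). From highest to lowest library, 4 of 37 did within the untreated group, 4 within TBI and 2 within IgG RIT. Groups differ in their number of libraries, on which this ratio depends, and the share over all genes was not computed. The 4 in untreated cells (Atf3, Derl3, Trib3 and Chac1) reached at most 3.95 CPM there. Xbp1, Hspa5, Pdia3, Pdia6, Sel1l and Atf3 were among the genes above all 12 libraries of the other groups in both CD45 RIT libraries. Per kilobase of transcript, the mean levels were led after CD45 RIT by P4hb (348 ± 215 CPM per kb), Hspa5 (331 ± 0.304) and Pdia3 (331 ± 27.2), which do not differ beyond their spread. In untreated cells they were led by Calr (272 ± 14.5), Pdia3 (233 ± 11.6) and P4hb (203 ± 21.6), and after IgG RIT by Ppp1r15a (805 ± 201), which was followed at a distance by Hspa5 (229 ± 61.1). After TBI, Ppp1r15a (246 ± 215) led but did not stand beyond its spread from Calr (173 ± 18.3). That mean includes TBI replicate 6, at 1840 CPM of Ppp1r15a against 327 to 572 in the other TBI libraries.

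Marker levels of other cells stood beside these values. The summed level of 12 plasma-cell genes was 350 and 421 CPM in the CD45 RIT libraries, within the untreated range of 121 to 1450, and Jchain, Tnfrsf17, Pou2af1, Ighg1, Ighg2b and Ighg2c were at 0 in both. Their sum consisted mainly of Sdc1, at 357 ± 22.4 CPM against 36.5 ± 10.1 in untreated cells. All 18 stromal and osteolineage genes were detected in every library, and Col1a1 was at 9210 ± 5340 CPM after CD45 RIT against 1390 ± 631 in untreated cells, 485 ± 174 after TBI and 196 ± 225 after IgG RIT. The summed level of 14 macrophage genes was 3210 to 3660 CPM after CD45 RIT against 129 to 182 in untreated cells, 26.7 to 57.9 after TBI and 33.1 to 74.4 after IgG RIT. Most of that sum was Vcam1 (3180 ± 474 CPM after CD45 RIT), which the stromal list also holds, while Csf1r was at 2.75 ± 0.187 CPM against 45.4 ± 7.38 in untreated cells and Adgre1 and Spic were at 0. The part of these cells in the levels of the 37 genes was not tested.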

How the data were processed

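RNA of 14 sorted-cell libraries was sequenced after SMART-Seq v4 and Nextera XT preparation, per the labels' protocols. The authors deposited 1 table of raw gene counts, with a gene length in bases (another column of that table) as deposited. The submitters' processing notes name STAR 2.7.7a, FastQC 0.11.9, edgeR 3.36.0 and the build hg38; the identifiers in the table are mouse, and 54587 of them had identical coordinates in a mouse GRCm38 annotation. The counting tool and its strand setting are not given in the sources used here. Total counts per library were 16412779 to 31077588, and intervals or floors from counts cover counting error only.

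Genes were kept by edgeR 4.0.16's expression filter (minimum count 10, minimum total 15), which left 21509 of 55335, and libraries were scaled by TMM. One quasi-likelihood fit of all 14 libraries, with a coefficient per group, gave 6 comparisons. P-values were Benjamini-Hochberg adjusted over all genes tested, and called means an adjusted p under 0.05. CPM are per 1000000 counts in kept genes times the TMM factor, and CPM per kb divide by the deposited gene length. The script was tested on simulated data. Samples were grouped by their treatment label, and each gene was named by role: Xbp1, Pdia2, the sensors, Hspa5, all genes called after TBI or IgG RIT, and in each role the genes with the largest differences after CD45 RIT. Of the wider pathway list, the 3 largest rises and falls among called genes without overlap were named. The genes, the pathway list and the marker lists were chosen with earlier results of these data known. Vcam1 is in the stromal and the macrophage lists. Ddit3 has 2 rows, and the one with counts was used.

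Alternatives were relative log expression factors, no scaling, no filter, DESeq2 1.42.0, fits of only the compared groups, a replicate block, a term for library numbers of 10 or more, and leaving out each library. Promoter windows were searched on both strands. R 4.3.3 was used.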

Additional observations from a re-analysis of the deposited data

Results flagged for a closer look

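Among 74 sets of values (1 gene in the untreated or TBI group), 8 held a library whose gap to the others exceeded Dixon's 95% limit, which is 10.8% where chance gives about 1 in 20. The sets share their libraries and are not independent, so nothing is read from that difference. The share over all genes was not computed. TBI replicate 6 accounts for 6 of the 8. In that library Atf4 was at 354 CPM (179 to 186 in the other TBI libraries), Ddit3 at 148 (43.5 to 70.1), Eif2ak1 at 994 (369 to 434), Ppp1r15a at 1840 (327 to 572) and Trib3 at 106 (11.2 to 35.2), all higher. Edem2 was lower there, at 23.0 CPM (45.0 to 46.4). Its summed erythroid level was 225000 CPM against 30400 to 45700 in the other TBI libraries, and its library number is 10 where theirs are lower; the part of either in these values was not tested. The other 2 were Hyou1 in TBI replicate 1, at 23.6 CPM (8.69 to 11.9), and Sel1l in untreated replicate 2, at 44.7 CPM (67.5 to 69.6).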

How the results depend on the processing

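The count of the 37 genes called after TBI was 9, and became 15 with DESeq2 and 15 with only the compared groups, 4 to 18 on leaving out single libraries, and 0 with a replicate block. Of 13 same-numbered pairs of libraries, 1 correlated above 0.1 in deviation from the group means (range −0.09 to 0.139), namely untreated and TBI replicate 4. What the replicate numbers mark is not stated, so the TBI calls hold only for fits without the block. The count after IgG RIT was 20, with 0 under the library-number term, 16 under the block and 15 to 24 without single libraries. CD45 RIT against untreated gave 15, with 23 by DESeq2, 9 with only the compared groups, 9 with the library-number term and 12 to 22 without single libraries. CD45 RIT against IgG RIT gave 21, with 9 in only the compared groups and 18 to 29 without single libraries. CD45 RIT against TBI gave 21, with 13 under the block and 18 to 27 without single libraries. IgG RIT against TBI gave 0, with 5 by DESeq2 and 0 to 7 without single libraries. Where 1 CD45 RIT library is left out, the other is assumed to vary like the other groups. Fits of only the compared groups use fewer samples. The cause of the other changes was not tested. The share of all genes called moved too. After TBI it was 4.31%, with 11.8% by DESeq2, 15% in the compared groups only and 0.177% under the block. After IgG RIT it was 16.4%, with 0.0883% under the library-number term and 9.59% under the block. CD45 RIT against untreated gave 33.1%, with 43.7% by DESeq2, 17.9% in the compared groups only and 11.4% with the library-number term. Against IgG RIT it was 37.7%, with 5.3% in the compared groups only, and against TBI 38.6%, with 17.5% under the block.

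Some log2 fold changes turned direction. With the library-number term Eif2ak3 turned to 0.45 after IgG RIT and to 0.77 after CD45 RIT, and Ern1 to −0.12 after CD45 RIT. With no scaling factors Hspa5 turned to −0.26 after IgG RIT, and after CD45 RIT Ern1 turned to −0.60 and Dnajb11 to −0.08. With the replicate block Ern1 turned to −0.23 after CD45 RIT. Leaving out single libraries, Eif2ak3 after CD45 RIT ranged from −5.74 to 0.24 and Ern1 from −11.09 to 1.22, since each had almost no counts in CD45 RIT replicate 2; a fitted fold change of a gene at 0 counts is no bound. With 2 CD45 RIT libraries the spread there is set largely by the other groups, and Atf3, Derl3, Chac1 and Trib3 had too few counts in untreated cells for a precise fold change.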

Other observations

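A wider list of 132 other genes of ER folding, quality control, transport and the Atf4 programme held 131 that passed the filter on low counts. The list was chosen with earlier results of these data known, so its counts are a description and no excess is read from them. Of these, 16 were called after TBI (8 higher, 8 lower; 12.2% against 4.31% of all genes) and 47 after IgG RIT (18 higher, 29 lower; 35.9% against 16.4%), by edgeR's quasi-likelihood test. Over all genes, 0.921% rose and 3.38% fell after TBI, and 5.75% rose and 10.7% fell after IgG RIT. Among 18 genes of folding and the lectin cycle, 5 fell and 1 rose after TBI, and 8 fell and 2 rose after IgG RIT. Among 20 Atf4 targets tested, 3 rose and 0 fell after TBI, and 6 rose and 2 fell after IgG RIT. Among 24 genes of translocation and glycosylation, 0 were called after TBI, and 6 fell and 1 rose after IgG RIT. Among 18 genes of the degradation machinery, 2 rose and 1 fell after TBI, and 6 rose and 1 fell after IgG RIT. Among 19 regulators of the unfolded protein response, 1 rose and 0 fell after TBI, and 2 rose and 3 fell after IgG RIT. Among 12 genes of oxidative folding, 1 rose and 1 fell after TBI, and 1 rose and 4 fell after IgG RIT. Among 20 genes of export from the ER, 1 fell and 0 rose after TBI, and 5 fell and 0 rose after IgG RIT. Pdia5, a further disulfide isomerase, was at 33.8 ± 12.1 CPM (SD, n = 4) in untreated cells, 5.05 ± 1.51 (n = 5) after TBI and 2.74 ± 1.63 (n = 3) after IgG RIT. It fell by 2.74 ± 0.40 (SE) on the log2 scale after TBI (adjusted p = 0.00299) and by 3.62 ± 0.51 after IgG RIT (adjusted p = 0.00193).

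Fkbp11, a prolyl isomerase of secretory cells, fell by 2.26 ± 0.44 after TBI (adjusted p = 0.0128) and by 3.07 ± 0.55 after IgG RIT (adjusted p = 0.00467). Serpinh1, the collagen chaperone, fell by 2.34 ± 0.34 after TBI (adjusted p = 0.00318), from 165 ± 51.0 to 32.6 ± 9.52 CPM. Sec24d, a coat protein of vesicles leaving the ER, fell by 3.08 ± 0.60 after IgG RIT (adjusted p = 0.00661). Clgn, a calnexin relative, rose by 1.94 ± 0.44 after TBI (adjusted p = 0.0282) and by 2.36 ± 0.48 after IgG RIT (adjusted p = 0.00759). The Atf4 targets Mthfd2, of mitochondrial one-carbon metabolism, and Aars, the alanyl-tRNA synthetase, rose by 1.81 ± 0.38 (adjusted p = 0.0186) and 1.36 ± 0.30 (adjusted p = 0.0238) after TBI. Slc7a5, an amino-acid transporter, rose by 2.29 ± 0.45 (adjusted p = 0.00692) and Gdf15, a stress-induced secreted factor, by 4.50 ± 1.16 (adjusted p = 0.0224) after IgG RIT.

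For CD45 RIT, genes of the list past the threshold and without overlap with untreated cells were ranked by their difference. The first 3 in each direction are given as levels only, and the threshold served only to pick them. An Atf4 target outside this choice had a larger log2 difference upward (7.69). Creb3l1, a stress sensor related to Atf6 that is known from bone-forming cells, was at 129 ± 58.1 CPM (n = 2) against 7.15 ± 1.48 in untreated cells. Fkbp10, which acts on collagen, was at 493 ± 217 against 27.1 ± 5.27 CPM, and Gdf15 at 18.4 ± 13.8 against 0.332 ± 0.314. Both libraries had 0 counts of Mzb1, a chaperone cofactor of plasma cells, and of Ero1lb, the oxidase that recharges the isomerases, at least 19.6-fold and at least 72.4-fold lower than in untreated cells. Edem3 was at 0.919 ± 0.265 against 29.7 ± 8.01 CPM. The summed stromal and osteolineage level was 78900 to 128000 CPM in these libraries against 4150 to 9460 in untreated cells. Its part in the values above, which go both ways, was not tested.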
